A study of Mus musculus with 6 samples.

Results

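RGS proteins are regulators of G protein signalling, and 10 genes of the family were followed in cultured mouse hepatic stellate cells: Rgs2, Rgs3, Rgs4, Rgs5, Rgs10, Rgs12, Rgs14, Rgs16, Rgs17 and Rgs19. They were taken by symbol from an exon count table of 24940 gene rows, and each of the 10 symbols matched 1 row. The comparison was obeticholic acid (OCA), an agonist of the bile acid receptor FXR, against the vehicle DMSO, and asked how the ligand alters gene expression in these cells. All 6 libraries came from primary stellate cells of female wild-type mice, strain spelled C57BL6/JBomTac in the labels, with no transgene named and no age given. The 3 OCA libraries received 10 µM OCA for 6 hours, and the 3 DMSO libraries received the same volume of DMSO for 6 hours. In both groups treatment began 2 days after the cells were isolated. Libraries were prepared from polyadenylated RNA and carry the letters A, B and C within each group. The labels do not say whether the letters stand for separate mice, isolations or dishes, so every p-value below rests on variation among these libraries that could be technical alone.

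A G protein coupled receptor switches on a G protein by making its alpha subunit exchange GDP for GTP, and the alpha subunit then stays active until it hydrolyses the GTP. RGS proteins bind the active alpha subunit through a conserved RGS domain and speed up that hydrolysis, so they shorten the signal from the receptor. Stellate cells are pericytes that line the sinusoids of the liver and store vitamin A. They contract and become matrix-producing myofibroblasts, and receptors for angiotensin, endothelin and other vasoactive ligands act on them through G proteins. Rgs5 is widely used as a pericyte marker, and Rgs4 and Rgs5 act mainly on G proteins of the Gi and Gq classes.

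Of the 10 genes, 8 had enough counts to be tested, and 2 of those fell under OCA: Rgs4 and Rgs5. Rgs4 fell to 0.47 of its DMSO level and Rgs5 to 0.74. No member was called higher by edgeR's quasi-likelihood test, and none had an unadjusted p under 0.05 in that direction (0 of 8, against 8.26% of all tested genes; below 0 it was 2 of 8, against 10.7%). DESeq2 and limma-voom also called 0 members higher and the same 2 lower. Rgs2 was near the limit of detection and Rgs14 had 0 counts in all 6 libraries. Over all 12687 tested genes, 3.03% were called lower, 2.18% higher and 5.2% in either direction, at a Benjamini-Hochberg adjusted p under 0.05. The median log2 fold change of the 8 tested members was -0.22, against 0.00076 over all tested genes, and 7 of the 8 values were below 0, against 49.8% of all tested genes. A median over so few genes is a description of these libraries and sets the family apart from nothing.

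The coding starts of both called genes and of Rgs16 are shown because they share a feature that most of the other members lack. RGS proteins that begin with methionine and then cysteine can be degraded through the N-degron pathway after the methionine is removed, as is known for RGS4, RGS5 and RGS16. The first 24 coding bases are given 5′ to 3′ from the GENCODE M21 transcripts, with the second codon in capitals.
Rgs4: atgTGCaaaggacttgcaggtctg
Rgs5: atgTGTaagggactggcagctctg
Rgs16: atgTGCcgcaccctagccaccttc
Rgs2: atgCAAagtgccatgttcctggct
Rgs19: atgCCCaccccacatgaggctgag
A cysteine codon, TGC or TGT, stood second in Rgs4, Rgs5 and Rgs16, which are 3 of the 9 members with counts. Rgs2, shown for contrast, has CAA there and Rgs19 has CCC. Rgs4 and Rgs5 share 20 of these 24 bases, and their open reading frames are 205 and 181 codons long. Their whole transcripts share no identical stretch longer than 17 bases, and the longest shared by any pair of members was 23 bases, between Rgs3 and Rgs16. Of the 3 genes with the cysteine codon, Rgs4 and Rgs5 were called lower and Rgs16 was not, where 3.03% of all tested genes were called lower. The N-degron pathway acts on protein and these data are RNA, so a relation between the codon and the calls was not tested.

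Library totals lay between 12260882 and 16336240 counts. With these totals scaled by normalisation factors (TMM), 3 counts correspond to 0.181 to 0.251 counts per 1000000 (CPM) in a single library. The fitted biological coefficient of variation was 7.98%, and libraries of 1 group differed from each other by more than counting noise (chi-square per degree of freedom 4.30 to 7.78). Of 12 stellate markers all were detected, with summed levels of 3022 to 3396 CPM in DMSO and 2594 to 3293 CPM in OCA. None was called higher and 1, Reln, was lower (log2 fold change -0.75, adjusted p = 0.0198 in edgeR's quasi-likelihood test), while 5 tested smooth muscle markers had no call (summed level 1326 to 1590 CPM in DMSO and 1523 to 1583 CPM in OCA). Markers of endothelial cells summed to 4.01 to 5.93 CPM in DMSO and 2.94 to 6.52 CPM in OCA. Leukocyte markers summed to 6.18 to 10.7 and 5.10 to 8.43 CPM, with Nkg7 at 0, and hepatocyte markers to 2.47 to 3.59 and 2.53 to 5.77 CPM. Portal fibroblast and mesothelial markers summed to 2.60 to 3.43 CPM in DMSO and 1.72 to 2.04 CPM in OCA, with Thy1, Mfap4 and Gpm6a at 0. Cholangiocyte markers summed to 8.40 to 9.53 and 11.3 to 14.8 CPM, with Krt7 at 0 and Krt19 and Epcam at means under 1 CPM. Sox9 rose from a mean of 2.54 CPM in DMSO to 7.67 CPM in OCA and was called higher. Spp1 went the other way, from 5.73 CPM in DMSO to 4.16 CPM in OCA, and was not called. The part of Reln or of these other lists in the RGS values was not tested. In bulk RNA, fewer cells that express a gene and less of its RNA per cell cannot be told apart.

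Levels of different genes were compared as reads per kilobase of transcript per 1000000 (RPKM), here CPM divided by the length of the transcript in the table. Rgs12 had the highest mean level of the family, at 28.6 RPKM in DMSO and 28.0 in OCA, above 69.2% of the tested genes in DMSO. Rgs19 followed in DMSO at 25.8 RPKM (23.5 in OCA) and Rgs10 at 23.3 RPKM (26.4 in OCA). The ranges of these 3 genes over the 6 libraries overlapped, so their order among themselves is not resolved. Rgs5 came next with 15.0 RPKM in DMSO and 11.2 in OCA, and its range touched neither that of Rgs19 above it nor that of Rgs3 below it. Rgs4 and Rgs3 had the same DMSO mean, 4.14 RPKM, and Rgs16 had 2.86. In OCA these were 1.94 RPKM for Rgs4, 3.54 for Rgs3 and 2.49 for Rgs16, so that Rgs4 moved from rank 5 of the family to rank 7. The ranges of neighbouring genes in this group of 3 overlapped. A clear step separated Rgs16 from Rgs17, at 0.338 RPKM in DMSO and 0.266 in OCA. Rgs5 made up 14.4% of the members' summed RPKM in DMSO and 11.5% in OCA, and Rgs4 3.96% and 1.99%. The sum over the family was 104 ± 4.32 RPKM (SD, n = 3) in DMSO and 97.6 ± 3.72 RPKM (SD, n = 3) in OCA, and the groups overlapped.

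**Figure D1:**
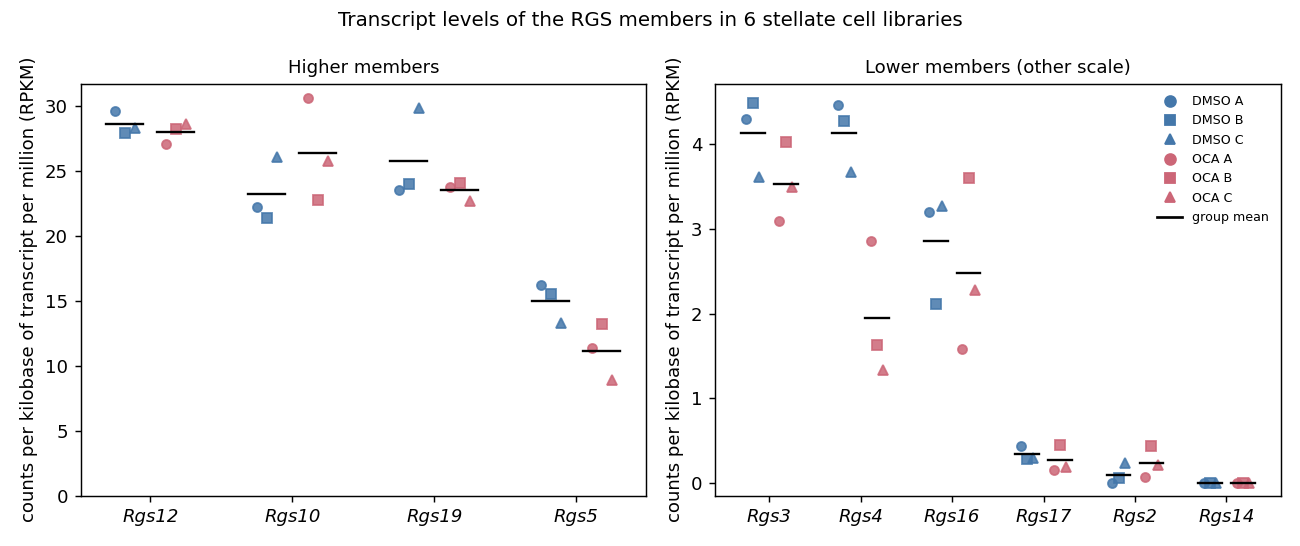
Level of each RGS gene in every library (RPKM, linear axes), with OCA and DMSO libraries as separate points. The axis of the first panel starts at 0, and that of the second starts just below 0 and has a smaller range. The points of Rgs12, Rgs10, Rgs19 and Rgs5 lie well above those of the other 6 genes, and the OCA points lie below all DMSO points in Rgs5 and Rgs4 only.

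Rgs4 encodes a small RGS protein, little more than the RGS domain with a short amino-terminal helix that holds it at the membrane. Its transcript NM_009062 lies on the minus strand at chr1:169741477-169747642 (mm10). The DMSO libraries A, B and C had 13.1, 12.5 and 10.8 CPM. Under OCA the level was 8.40 CPM in A, 4.79 in B and 3.92 in C. All 3 OCA libraries were below all 3 DMSO libraries, and OCA A stood closer to the DMSO libraries than OCA B and OCA C did. The mean was 12.1 ± 1.20 CPM (SD, n = 3) in DMSO and 5.70 ± 2.37 CPM (SD, n = 3) in OCA. The log2 fold change was -1.09 (SE 0.23, edgeR's quasi-likelihood test, adjusted p = 0.00919). These levels rest on 50 to 112 counts per OCA library and 150 to 217 per DMSO library. Without DMSO A the log2 fold change was -1.03 with an adjusted p of 0.0603 in the same test, so the call was lost there. The call held narrowly without OCA C (-0.88, adjusted p = 0.0487) and without DMSO B (-1.07, adjusted p = 0.043). Without OCA A the log2 fold change was -1.48 (adjusted p = 0.000508). The adjusted p was 0.00799 without OCA B and 0.0246 without DMSO C.

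Rgs5 encodes a protein of the same build, abundant in pericytes and vascular smooth muscle. Its transcript NM_009063 lies on the plus strand at chr1:169655501-169695813. The DMSO libraries had 66.5, 63.5 and 54.5 CPM in A, B and C. The OCA libraries had 46.5, 54.2 and 36.4 CPM in the same order of letters. The groups did not overlap, but the highest OCA library (B) and the lowest DMSO library (C) were nearly level. The mean was 61.5 ± 6.25 CPM (SD, n = 3) in DMSO and 45.7 ± 8.94 CPM (SD, n = 3) in OCA, a fall of smaller size than that of Rgs4. The log2 fold change was -0.43 (SE 0.11, edgeR's quasi-likelihood test, adjusted p = 0.0326), on 464 to 1103 counts per library. The adjusted p rose to 0.0921 without OCA A, 0.168 without OCA C, 0.183 without DMSO A and 0.105 without DMSO B, and to 0.0571 with robust estimation of the spread, so this call rests on all of those libraries and on that setting. The log2 fold change stayed between -0.57 and -0.29 over the 18 alternatives tried.

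**Figure D2:**
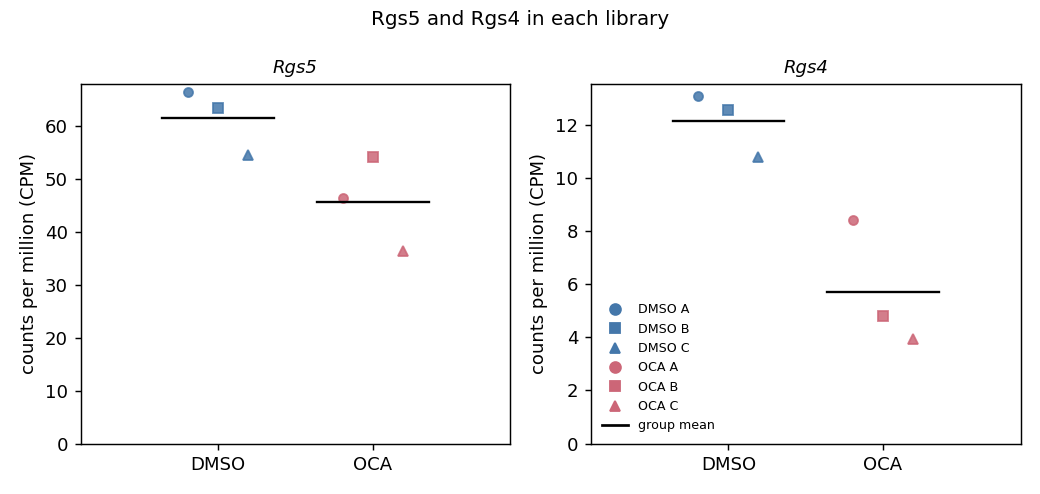
CPM of Rgs4 and Rgs5 in each library, with the group means (axes from 0). The OCA points are below the DMSO points in both genes, with a gap for Rgs4 and almost none for Rgs5, where 54.2 CPM in OCA B stands beside 54.5 CPM in DMSO C.

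The balance between both genes was read within each library, a comparison chosen after the values had been seen. DMSO libraries A, B and C held 19.7, 19.7 and 19.8 Rgs4 counts per 100 Rgs5 counts. OCA libraries held 18.1 in A, 8.83 in B and 10.8 in C. The ratio was nearly constant in DMSO and lower in every OCA library, but only slightly so in OCA A. These ratios rest on 150 to 217 Rgs4 counts per DMSO library and 112 in OCA A, and their counting error was not estimated. The closeness of the DMSO values and the small difference of OCA A from them are therefore a description only. The mean log2 ratio differed by -0.72 between OCA and DMSO. It is given without a p-value, since both genes were taken because they were called. An exact test of 3 against 3 libraries also cannot pass 0.05. Over the 6 libraries Rgs4 and Rgs5 had a Pearson r of 0.80 in log2 CPM, given as a description, since the libraries share the treatment; Rgs16 and Rgs17, both uncalled, had a higher one, 0.89.

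Both genes sit side by side on chromosome 1. They point towards each other, with 45663 bases between their 3′ ends, 92141 bases between their starts and 0 other genes of the table between them. Within 1000000 bases on either side the table holds 16 other genes, of which 9 were tested. edgeR's quasi-likelihood test called 0 of these higher and 0 lower, as did DESeq2 and limma-voom. In edgeR the shares over all tested genes were 2.18% and 3.03%. Hsd17b7 and Atf6, named after their values were seen, had an unadjusted p under 0.05 in that test, both with values below 0. These are 2 of 9, against 10.7% of all tested genes. Hsd17b7, on the Rgs4 side, had a log2 fold change of -0.19 (adjusted p = 0.209) and Ddr2, a collagen receptor, had -0.11 (adjusted p = 0.412). The median of the 9 was -0.11, against 0.00076 over all tested genes, and 9 genes are too few to describe the region. Rgs4, Rgs5, Rgs2 and Rgs16 all lie on chromosome 1, which carries 11 of the 21 RGS family genes listed, and of those 4 the first pair were called.

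The 250 bases before each start are shown for Rgs4 and Rgs5, the 2 members that were called. They come from RefSeq (GRCm38.p6, the assembly of mm10), 5′ to 3′ on the gene's strand, and are chr1:169747643-169747892 on the minus strand for Rgs4 and chr1:169655251-169655500 on the plus strand for Rgs5. Capitals mark a TATAAA and a CCAAT, which reads ATTGG here because it lies on the opposite strand.
Rgs4: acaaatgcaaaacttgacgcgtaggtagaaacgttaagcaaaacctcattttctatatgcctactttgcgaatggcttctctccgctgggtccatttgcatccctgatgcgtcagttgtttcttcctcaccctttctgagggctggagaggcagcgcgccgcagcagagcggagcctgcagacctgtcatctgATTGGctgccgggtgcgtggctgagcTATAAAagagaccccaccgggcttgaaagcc
Rgs5: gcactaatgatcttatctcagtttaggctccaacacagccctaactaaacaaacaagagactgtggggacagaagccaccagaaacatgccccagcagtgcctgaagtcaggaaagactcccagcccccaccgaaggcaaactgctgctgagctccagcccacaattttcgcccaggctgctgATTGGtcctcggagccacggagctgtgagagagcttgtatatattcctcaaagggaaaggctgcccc
TATAAA was found in the Rgs4 window, 31 bases before the start, and those exact letters are not in the Rgs5 window. On either strand, 12.4% of 32851 promoters of the same length hold it. Variants of the hexamer were not searched. The Rgs5 window holds the similar letters tatatatt close to the start, so the missing match does not set the 2 genes apart. CCAAT on the opposite strand was found 57 bases before the start of Rgs4 and 67 bases before that of Rgs5. On either strand, 33.8% of promoters hold CCAAT. Neither motif is particular to this pair: Rgs16, which was not called, has the pentamer on the opposite strand 68 bases before its start, and Rgs2 has it 94 bases before its start. Both Rgs3 windows, which belong to other starts than its row in the table, hold the hexamer. The pentamer was added to the search after both windows had been read. Neither window held the inverted repeat bound by FXR with its partner RXR (IR1, a half-site and its inverted copy 1 base apart, in 0.00609% of promoters) or its half-site AGGTCA (14% of promoters). Nor did either hold the cAMP response element TGACGTCA (1.55%), the AP-1 site TGANTCA (6.75%), the E-box CACGTG (6.02%) or a CArG box (1.47%), all searched on both strands, with AGGTCA overlapping the inverted repeat. A match is no proof of a site, and a missing match says only that these letters are not in this window.

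Among the other small members, Rgs16 has the same cysteine codon. It was at 3.67 CPM in OCA A, 8.39 in OCA B and 5.30 in OCA C, against 7.45, 4.93 and 7.60 in the DMSO libraries. The groups overlapped, with the single highest and the single lowest library both under OCA. The log2 fold change was -0.21 (SE 0.28, edgeR's quasi-likelihood test, adjusted p = 0.727). Without OCA A it was 0.03, so its direction rests on that library, and without OCA B it was -0.58.

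Rgs3, whose longer product carries extra sequence ahead of the RGS domain, had 8.70, 11.3 and 9.81 CPM in OCA A, B and C. The DMSO libraries had 12.1, 12.6 and 10.1 CPM, so the groups overlapped. The log2 fold change was -0.22 (SE 0.17, edgeR's quasi-likelihood test, adjusted p = 0.528), and leaving out each library in turn gave -0.32 to -0.13, the ends without OCA B and without OCA A.

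Rgs2, a regulator that prefers Gq and restrains angiotensin signalling in blood vessels, was barely detected. It had 3, 17 and 8 counts in OCA A, B and C and 0, 2 and 11 in DMSO A, B and C. The groups overlapped. The 28 OCA against 13 DMSO counts give a ratio of 2.42 on TMM-scaled totals (95% exact interval 1.21 to 5.08, counting error only). With no filter on low counts its log2 fold change was 1.25 (SE 1.06, edgeR's quasi-likelihood test, adjusted p = 0.648). The counting interval leaves out the spread between libraries, and in each group the range over the libraries was larger than the difference between the group means.

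Rgs10, Rgs12 and Rgs14 belong to the R12 subfamily, in which Rgs12 and Rgs14 carry further domains that bind Ras-like proteins and inactive alpha subunits, while Rgs10 is little more than an RGS domain. Rgs12 had 148, 154 and 156 CPM in OCA A, B and C and 161, 152 and 154 CPM in DMSO A, B and C. It was the steadiest member, with a log2 fold change of -0.03 (SE 0.06, edgeR's quasi-likelihood test, adjusted p = 0.815), and its sign turned to 0.05 with the correction for transcript length described below. Leaving out each library in turn kept it between -0.051 and -0.0075. Rgs10 had 26.6, 19.8 and 22.4 CPM in OCA and 19.3, 18.6 and 22.7 CPM in DMSO. It was the only tested member with a positive log2 fold change in the main test, 0.18 (SE 0.13, edgeR's quasi-likelihood test, adjusted p = 0.489), and the groups overlapped. Without OCA A it was 0.059, without OCA B 0.28 and without DMSO C also 0.28. Rgs14 had 0 counts everywhere, which allows up to 0.0683 CPM in the DMSO group and 0.0767 CPM in the OCA group (3 counts over the 3 libraries, counting error only).

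Rgs17 and Rgs19 belong to the RZ subfamily, whose members carry a cysteine-rich string that is fatty acylated and act on Gi class subunits, including Gz. Rgs19 had 35.8, 36.3 and 34.2 CPM in OCA A, B and C and 35.5, 36.2 and 45.0 CPM in DMSO A, B and C. DMSO C stood above the other 5 libraries, which lay close together. The log2 fold change was -0.13 (SE 0.10, edgeR's quasi-likelihood test, adjusted p = 0.506), and without DMSO C it was -0.016, so nearly the whole value rests on that library. Rgs17 had 1.27, 3.64 and 1.57 CPM in OCA and 3.53, 2.26 and 2.44 CPM in DMSO. Its groups overlapped, with the highest library under OCA, and its log2 fold change was -0.34 (SE 0.40, edgeR's quasi-likelihood test, adjusted p = 0.685). That value rests on single libraries: it was -0.95 without OCA B, -0.072 without OCA A, -0.16 without OCA C and -0.12 without DMSO A. The 84 OCA against 123 DMSO counts give a ratio of 0.767 after the same scaling (95% exact interval 0.574 to 1.02, counting error only).

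Counted over the tested members, the OCA group lay wholly below the DMSO group in 2 of 8, Rgs4 and Rgs5, and wholly above it in 0. Over all tested genes these shares were 11.3% and 11.7%. For the 6 members without a call, an adjusted p above 0.05 does not show that they stayed level: the standard errors ran from 0.06 for Rgs12 to 0.40 for Rgs17 on the log2 scale, so a change of the size seen in Rgs5 would not have been resolvable in Rgs17.

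**Figure D3:**
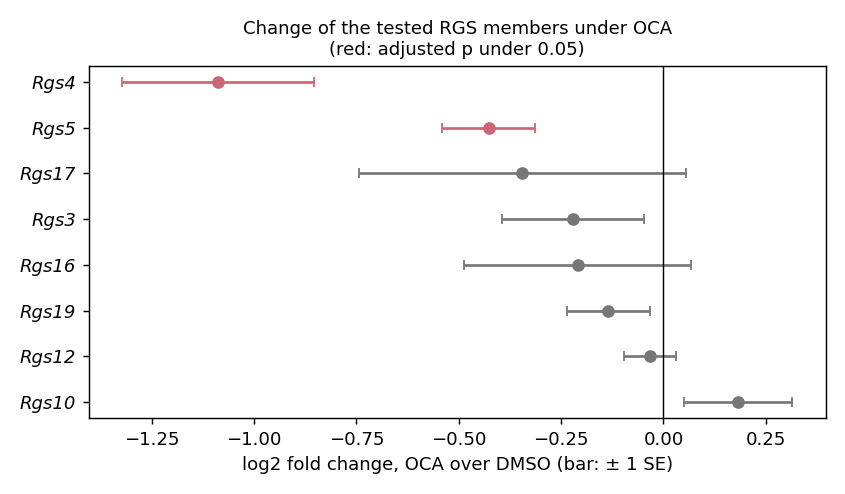
Log2 fold change of OCA over DMSO for the 8 tested RGS genes, with bars of 1 standard error; red points passed an adjusted p of 0.05. Rgs4 at -1.09 and Rgs5 at -0.43 are the only red points, and Rgs10 at 0.18 is the only point above 0.

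Transcript length moved with the fold changes of all genes. In the shortest eighth of the tested genes 0.189% were called lower and in the longest eighth 12.7%. Rgs4 lies in the fifth of the 8 bins, from 2934 to 3571 bases, where 1.39% were lower. Rgs5 lies in the sixth, from 3573 to 4411 bases, where 3.53% were lower and the median log2 fold change was -0.04. With offsets that remove the length trend in each library, the calls over all genes went from 276 higher and 384 lower to 378 higher and 227 lower. Rgs4 then had a log2 fold change of -1.08 (edgeR's quasi-likelihood test, adjusted p = 0.00256) and Rgs5 -0.38 (adjusted p = 0.018), so both were called with and without the correction.

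**Figure D4:**
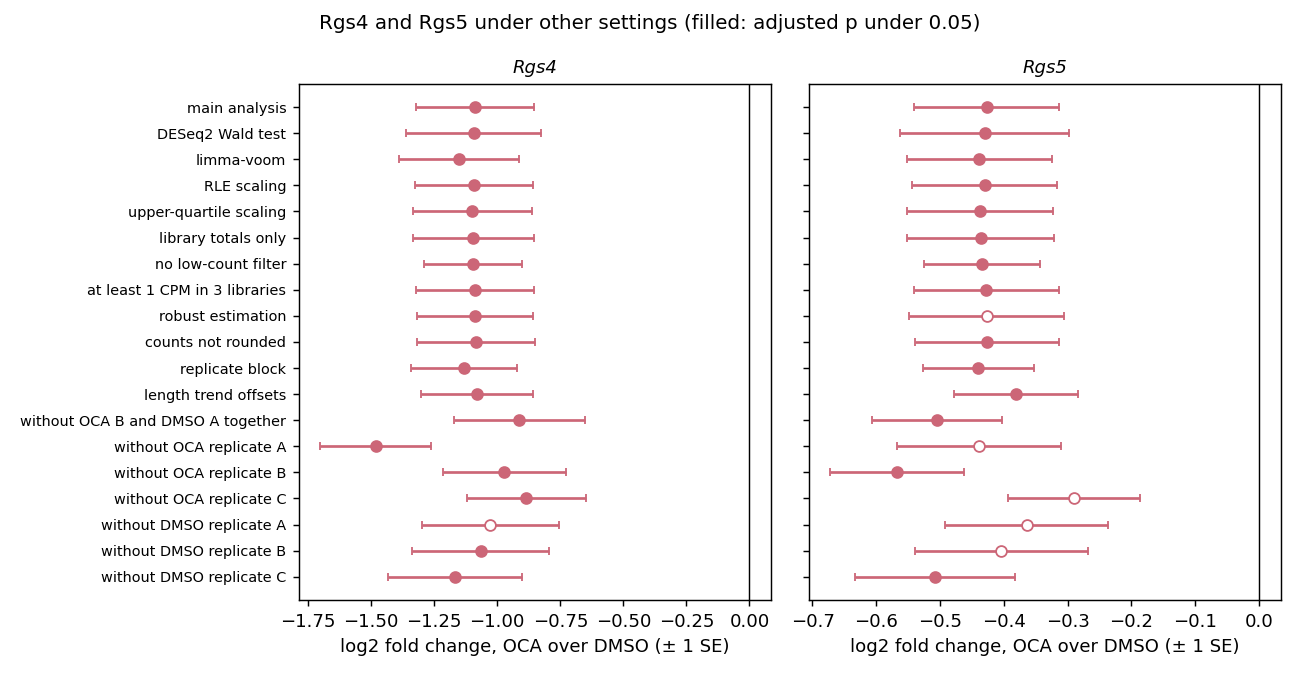
Log2 fold change of Rgs4 and Rgs5 in the main test and in 18 alternatives, with filled points for an adjusted p under 0.05. All points are below 0; 1 of the Rgs4 alternatives and 5 of the Rgs5 alternatives are open.

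The rest of the G protein cycle was read from 9 further lists with 107 genes, of which 75 were tested. In these 75, 4 were called higher and 1 lower, against 2.18% and 3.03% of all tested genes. The median log2 fold change was -0.0065. All 4 higher calls came from the list of receptors, and the lists were drawn up with earlier results of these data known. Of the 11 other RGS family genes 3 were tested and none was called, while 3 had 0 counts in all libraries. Rgs9, a partner of Gnb5 best known from photoreceptors and striatum, had 17.2 ± 1.84 CPM (SD, n = 3) in DMSO and 14.6 ± 0.816 CPM (SD, n = 3) in OCA (log2 fold change -0.23, edgeR's quasi-likelihood test, adjusted p = 0.396). Rgs7 went from 0.661 to 1.15 CPM (adjusted p = 0.466) and Rgs20 from 0.557 to 0.872 CPM (adjusted p = 0.592), so neither passed the test. Rgs6 had 12.5 counts over the 6 libraries and Rgs8 and Rgs11 10 each, too few to test.

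The RhoGEFs with an RGS-like domain link G12 class subunits to RhoA, and 1 of the 3 was called. Arhgef12 fell from 376, 355 and 336 CPM in DMSO A, B and C to 285, 311 and 280 CPM in OCA A, B and C. The groups did not overlap, and the log2 fold change was -0.28 (SE 0.07, edgeR's quasi-likelihood test, adjusted p = 0.0254). The transcript is 10440 bases long, and with the length correction the value was -0.10 (adjusted p = 0.524). The call was also lost without OCA A (adjusted p = 0.125), OCA C (0.137) or DMSO A (0.116).

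The substrates and the other parts of the cycle held no call. Among 13 tested alpha subunits 0 were called, with a median log2 fold change of 0.0088, and Gnai2, the most abundant, had 464 ± 47.2 CPM (SD, n = 3) in DMSO and 508 ± 11.4 CPM (SD, n = 3) in OCA (edgeR's quasi-likelihood test, adjusted p = 0.381). The beta and gamma subunits (0 of 11 called) were led by Gnb1, with 546 CPM in DMSO and 575 in OCA. Grk5, a kinase that desensitises active receptors, led the 7 tested kinases and arrestins with 191 CPM in both groups. Ric8a, a chaperone and exchange factor for alpha subunits, led the 6 other cycle regulators with 122 and 132 CPM. Plcb3, an effector of Gq, led the 3 tested phospholipases C beta with 121 and 126 CPM. The N-degron enzymes that act on RGS proteins with a cysteine second had 0 of 8 called, 6 values below 0 and a median of -0.09. Ubr4, a ubiquitin ligase of that pathway, had 438 ± 58.6 CPM (SD, n = 3) in DMSO and 349 ± 55.0 CPM (SD, n = 3) in OCA (log2 fold change -0.33, SE 0.10, edgeR's quasi-likelihood test, adjusted p = 0.0712). Across the 7 lists without a call, other RGS genes included, 51 genes were tested. An unadjusted p under 0.05 was reached by 1 above 0, Gna14, named after its values were seen, and by 5 below 0. Over all tested genes these shares were 8.26% and 10.7%. limma-voom called none of the 51, and DESeq2 called 1 lower.

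The last list held 30 receptors for vasoactive, lipid, nucleotide and chemokine ligands, most of them coupled to Gq or Gi, of which 21 were tested. Of these 4 were higher, against 2.18% of all tested genes, and 0 lower, against 3.03%. The list was drawn up with earlier results of these data known, so these shares do not test receptors as a group. DESeq2 and limma-voom also called 0 lower. In edgeR's quasi-likelihood test 4 receptors below 0 and 7 above 0 had an unadjusted p under 0.05. Over all tested genes these shares were 10.7% and 8.26%. Of the 21 values 11 were below 0, and the median log2 fold change was -0.0145. Agtr1a encodes the angiotensin II receptor, and its level rose from 125 CPM in DMSO to 222 CPM in OCA (log2 fold change 0.83, edgeR's quasi-likelihood test, adjusted p = 1.91e-07). S1pr3, which binds sphingosine-1-phosphate, rose from 168 CPM in DMSO to 263 CPM in OCA (log2 fold change 0.65, adjusted p = 1.41e-06). Lpar2, a lysophosphatidic acid receptor, rose from 12.1 ± 1.83 to 28.2 ± 0.715 CPM (SD, n = 3; log2 fold change 1.23, edgeR's quasi-likelihood test, adjusted p = 4.55e-06). The fourth, Adra1b, an adrenergic receptor named after its values were seen, rose from 116 CPM in DMSO to 160 CPM in OCA (log2 fold change 0.46, adjusted p = 0.000153). In these 4 genes every OCA library was above every DMSO library, the reverse of Rgs4 and Rgs5. Over the 21 tested receptors this held for 6, against 11.7% of all tested genes, and the opposite held for 4, against 11.3%. Receptor and RGS levels come from the same 6 libraries, and no relation between them was tested.

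**Figure D5:**
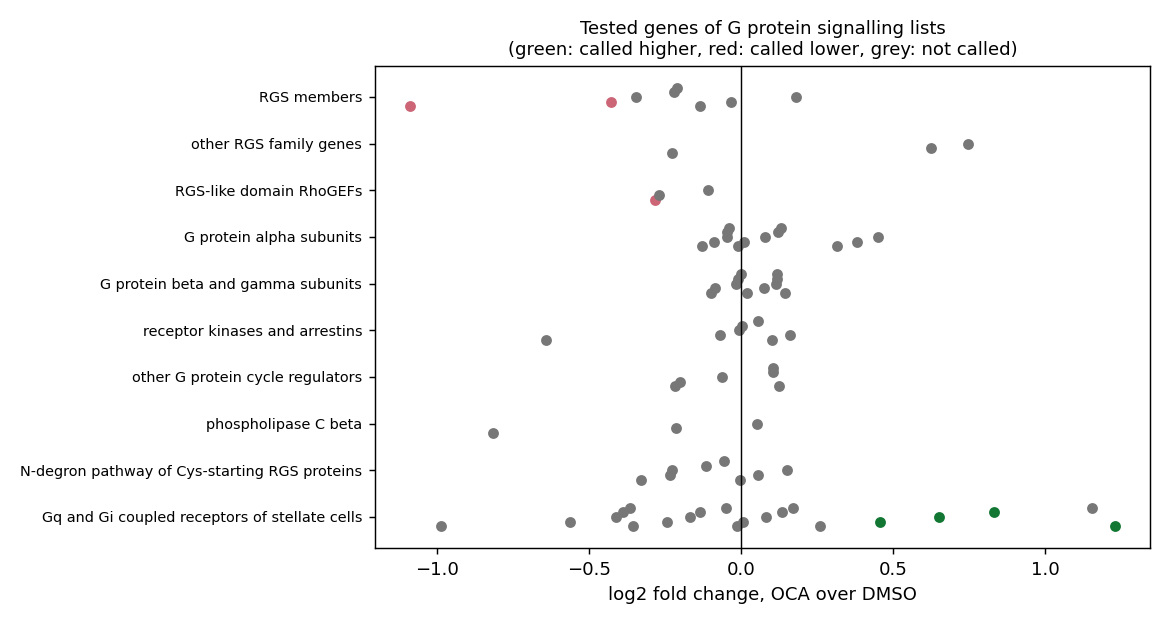
Log2 fold change of OCA over DMSO for each tested gene of the RGS members and of the 9 further lists, with green points called higher, red points called lower and grey points not called. Red points occur among the RGS members (2) and the RhoGEFs (1), and green points only among the receptors (4).

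The genes most like the called members in pattern were found by Pearson r of log2 CPM over the 6 libraries, among genes with a mean of at least 5 CPM. For Rgs4 these were Tpp2 (r = 0.990), Wnt4 (0.985) and Arhgap42 (0.984). Wnt4, a secreted Wnt ligand, had a log2 fold change of -0.33 and was called lower (edgeR's quasi-likelihood test, adjusted p = 0.0275), while Tpp2 at -0.07 and Arhgap42 at -0.17 were not called. For Rgs5 they were Vegfc (0.999), Smad1 (0.994) and Mllt6 (0.993), with log2 fold changes of -0.11, -0.24 and -0.25 and none called. With 12687 genes and 6 libraries, a high r is found for many genes, and these values are a description only.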

How the data were processed

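RNA was sequenced from 6 libraries of mouse hepatic stellate cells, 3 OCA and 3 DMSO. The authors deposited a table of estimated counts per gene over exons, in steps of 0.5. Per library, 26.5% to 29.8% of all values, those at 0 included, were not whole. The submitters' processing notes name STAR, HOMER and mm10, with no versions. The sources used here do not give how strand, or reads that match several genes, were treated. Gene symbols, transcripts, lengths and coordinates were taken from the table. Counts were rounded to whole numbers and fitted across all genes with R 4.3.3 and edgeR 4.0.16 (genes kept by filterByExpr, TMM factors, quasi-likelihood test, two-sided, Benjamini-Hochberg adjustment over 12687 genes, threshold 0.05). The procedure was first run on counts simulated from its own fitted trend of spread with level. Those counts held no trend with transcript length and no outlying library, so that run does not vouch for the calls here. CPM were computed from unrounded counts and TMM-scaled totals. Alternatives used limma 3.58.1, DESeq2 1.42.0, other scalings and filters, a replicate block, offsets for a trend with transcript length, and leaving out each library. All 10 members were named, and in every other list up to 3 genes that passed, by smallest p, or else the gene with the highest mean CPM, plus other RGS genes with at least 10 counts. Some genes of the lists are counted but not reported by name here. Members and lists were chosen with earlier results of these data known. Without strand, reads of Rgs12 and Rgs16 cannot be told from antisense transcripts that overlap 467 and 236 of their exon bases in GENCODE M21.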

Additional observations from a re-analysis of the deposited data

How the results depend on the processing

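Rgs4 was called lower in 17 of 18 alternatives and Rgs5 in 13, always with a log2 fold change below 0, from -1.48 to -0.88 for Rgs4 and from -0.57 to -0.29 for Rgs5. The number of RGS members called lower was 2, with 1 under robust estimation and 0 to 2 when each library was left out in turn; the number called higher was 0 in all of these. The sign turned for Rgs12 with length trend offsets (0.053) and for Rgs16 without OCA A (0.034, within -0.58 to 0.034 when each library was left out), both uncalled. In the wider lists the number called lower was 1, against 2 with DESeq2 and with upper-quartile scaling, 3 with library totals only and with robust estimation, 5 with no filter on low counts, 0 with length trend offsets, 3 without OCA B and DMSO A together, and 0 to 5 when each library was left out; the cause was not tested. The letters A, B and C were not shown to pair the libraries (correlation of same-letter deviations 0.02, -0.06 and 0.12). With the letter as a replicate block, 2 members and 3 genes of the wider lists were called lower, and over all genes 306 were higher and 508 lower, against 276 and 384 without it. Over all genes, 331 were higher and 703 lower with no filter on low counts, and 339 and 605 without OCA B and DMSO A together. When each library was left out, the calls ranged from 161 to 363 higher and from 104 to 758 lower. For Rgs14, with 0 counts in every library, a change was not detectable at this depth.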
